A study of Mus musculus with 2 samples.

Results

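The somatostatin and neuropeptide Y systems of the mouse preoptic area (POA) were examined through 9 genes of the 32285 counted: the peptide genes Sst and Npy, the somatostatin receptor genes Sstr1, Sstr2, Sstr3 and Sstr4, and the neuropeptide Y receptor genes Npy1r, Npy2r and Npy5r. They were chosen by name. The series holds 1 single-nucleus RNA library per condition, US+ and then US- here. US+ nuclei came from wild-type mice aged 6–9 weeks whose POA had been exposed to ultrasound about 1 h before collection, and US- nuclei came from sham mice of the same age. Each library pooled the nuclei of 4 mice, sorted for the neuronal nuclear protein NeuN, so mouse-to-mouse spread could not be measured. No difference between US+ and US- was therefore tested, and every interval given is an exact 95% interval that covers counting error only.

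Somatostatin and neuropeptide Y are short peptides cut from larger precursors and released from dense-core vesicles. Their receptors are G-protein-coupled and act mainly through inhibitory G proteins, which lower cyclic AMP, open inwardly rectifying potassium channels and close calcium channels. In the forebrain, a group of GABAergic interneurons makes both peptides together with neuronal nitric oxide synthase (Nos1), while other hypothalamic neurons make only somatostatin or only neuropeptide Y.

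The 9 genes lie at the following places of GRCm38 in the GENCODE annotation. Sst is at chr16:23889573-23890958 on the minus strand and Npy at chr6:49822710-49829507 on the plus strand. Sstr1 is at chr12:58211772-58214444 (plus), Sstr2 at chr11:113619342-113626028 (plus), Sstr3 at chr15:78537008-78544685 (minus) and Sstr4 at chr2:148395344-148396767 (plus). Npy2r is at chr3:82538383-82548084 (minus). Npy5r, at chr8:66679965-66688128 on the minus strand, and Npy1r, at chr8:66697192-66706792 on the plus strand, point away from each other with 9064 bases between their starts. Sstr2 lies inside Slc39a11 on the opposite strand, and since the sources used here do not state whether counting used strand, its counts are less certain than the others.

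Promoter sequences are shown because early-response genes are compared further on between nuclei that did and did not express these peptides. The cyclic AMP response element (CRE, TGACGTCA) and the AP-1 element (TGANTCA) are the DNA motifs bound by the CREB and Fos/Jun families of transcription factors. RefSeq windows of GRCm38.p6, from 250 bases before to 50 after a start site, were matched for 8 of the 9 genes (not Sstr1) and searched on both strands. CRE was found in the windows of Sst, 48 bases before the start, and Sstr2, 58 bases before it, and in 1.79% of all 32851 windows. AP-1 was found in the window of Npy1r, 231 bases before the start, and in 7.81% of all windows. The 250 bases before the start are given 5′ to 3′ on the gene's strand, with the motif in capitals, and neither motif overlaps the other there.
Sst promoter, chr16:23890845-23891094, strand -: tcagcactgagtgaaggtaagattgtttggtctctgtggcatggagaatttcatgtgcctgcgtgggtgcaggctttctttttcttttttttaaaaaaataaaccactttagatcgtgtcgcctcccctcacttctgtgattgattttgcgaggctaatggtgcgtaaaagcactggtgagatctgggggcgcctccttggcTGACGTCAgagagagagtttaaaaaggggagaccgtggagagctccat
Sstr2 promoter, chr11:113619077-113619326, strand +: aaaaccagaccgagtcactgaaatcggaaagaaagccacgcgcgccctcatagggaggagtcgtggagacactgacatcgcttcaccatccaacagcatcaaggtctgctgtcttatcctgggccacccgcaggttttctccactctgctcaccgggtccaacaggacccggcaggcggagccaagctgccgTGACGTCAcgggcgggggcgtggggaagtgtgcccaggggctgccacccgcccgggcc
Npy1r promoter, chr8:66697172-66697421, strand +: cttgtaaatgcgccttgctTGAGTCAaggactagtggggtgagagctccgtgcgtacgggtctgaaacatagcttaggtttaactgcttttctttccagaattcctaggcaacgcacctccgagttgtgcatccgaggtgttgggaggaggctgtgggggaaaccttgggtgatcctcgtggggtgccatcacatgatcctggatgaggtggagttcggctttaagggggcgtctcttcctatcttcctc
The GENCODE models of Sst and Npy1r begin farther upstream than these RefSeq starts, so positions hold for the RefSeq start only. A match describes these letters in this window and does not show that a factor was bound there.

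Of 12075 US+ and 11725 US- barcodes, 9912 and 11040 nuclei were kept, with 200 to 7500 genes, at most 5% mitochondrial unique molecular identifiers (UMIs, counted RNA molecules) and at least 2000 UMIs. Their median depth was 7376 UMIs in US+ and 7663.5 in US-, and 29 barcode sequences occurred in both libraries. Nuclei were called GABAergic with at least 2 UMIs of Gad1, Gad2 and Slc32a1 together and none of Slc17a6, Slc17a7 and Slc17a8 (5087 in US+ and 6703 in US-). They were called glutamatergic with at least 1 UMI of those transporters and at most 1 of the GABAergic genes (1216 and 1010). Lhx6-positive nuclei had at least 1 UMI of Lhx6, a transcription factor of interneurons from the medial ganglionic eminence (1085 and 1596), and striatal-type nuclei had at least 2 UMIs of Rarb and at least 1 of the dopamine receptor genes Drd1 and Drd2 (587 and 2017). These classes overlap, and 804 US+ and 1247 US- nuclei were both GABAergic and Lhx6-positive. The libraries differed in makeup: striatal-type nuclei made up 5.92% of US+ and 18.3% of US- nuclei, and Lhx6-positive nuclei made up 10.9% and 14.5%. Whether dissection or another step set these shares was not tested. Many nuclei sat at a class limit: 1231 US+ and 1479 US- GABAergic nuclei had just 2 marker UMIs, 780 and 608 glutamatergic nuclei had 1 transporter UMI, and 693 and 970 Lhx6-positive nuclei had 1 Lhx6 UMI.

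Sst RNA was found at a low level in every class and at a high level in few nuclei. Over GABAergic nuclei Sst reached 24.5 CPM (UMIs of a gene per 1000000 UMIs) in US+ and 22.7 in US-. Over glutamatergic nuclei it reached 22.6 and 17.8 CPM, and over Lhx6-positive nuclei 48.6 CPM (44.8–52.7) in US+ and 51.1 CPM (47.9–54.4) in US-. The Lhx6-positive level was thus the highest of these classes in both libraries. Of GABAergic nuclei 13.6% in US+ and 12.9% in US- had an Sst UMI (median depths 8197 and 8661 UMIs), and of glutamatergic nuclei 12.9% and 10.3% did (7891 and 7946.5 UMIs). Nuclei rich in oligodendrocyte genes, which should lack Sst, had one in 3 of 26 US+ nuclei (11.5%, 2.45–30.2, median depth 3986.5 UMIs) and in 1 of 13 US- nuclei (7.69%, 0.195–36.0, median depth 2822 UMIs). An isolated Sst UMI therefore cannot be told apart from free RNA, and nuclei with at least 3 UMIs of a peptide gene are described here as rich in it. With each nucleus thinned to 2000 UMIs, an Sst UMI remained in 7.37% of Lhx6-positive nuclei in US+ and 8.58% in US- (19.6% and 18.8% before thinning), and in 4.52% and 2.38% of glutamatergic nuclei.

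Npy RNA followed the same order of classes. Npy reached 9.53 CPM in US+ and 11.3 in US- over GABAergic nuclei, 5.58 and 7.57 CPM over glutamatergic nuclei, and 22.3 CPM (19.8–25.1) and 27.9 CPM (25.5–30.4) over Lhx6-positive nuclei. An Npy UMI was found in 4.17% of all US+ nuclei and 5.50% of all US- nuclei, and in 2 of 26 US+ and 0 of 13 US- oligodendrocyte-type nuclei. The last value allows a share of up to 24.7%, so the background of Npy is loosely bounded.

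A small number of peptide-rich nuclei held a large share of the peptide RNA. Sst-rich nuclei numbered 130 in US+ (1.31% of nuclei) and 119 in US- (1.08%) and held 37.8% and 40.8% of all Sst UMIs. Npy-rich nuclei numbered 41 in US+ (0.414%) and 59 in US- (0.534%) and held 42.6% and 45.8% of all Npy UMIs. The richest single nuclei held 32 Sst UMIs in US+ and 39 in US-, and 26 and 37 Npy UMIs. At the threshold itself, 158 US+ and 125 US- nuclei had 2 Sst UMIs and lay just outside. Of the Sst UMIs of Lhx6-positive nuclei, Sst-rich nuclei held 69.4% in US+ and 73.2% in US-, against 41.3% and 41.6% in GABAergic and 31.1% and 34.2% in glutamatergic nuclei. Of the Npy UMIs of Lhx6-positive nuclei, Npy-rich nuclei held 76.7% and 76.3%.

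Striatal-type nuclei had 27.4 CPM of Sst in US+ and 25.8 in US-, and 16.1 and 14.3 CPM of Npy. Sst-rich nuclei held 61.6% of that Sst in US+ and 56.3% in US-, and Npy-rich nuclei held 78.2% and 68.3% of that Npy. Leaving out nuclei with at least 3 UMIs of either gene, an alternative chosen after seeing the data that lowers these levels by construction, gave 10.7 and 11.3 CPM of Sst and 3.09 and 4.46 CPM of Npy.

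**Figure D1:**
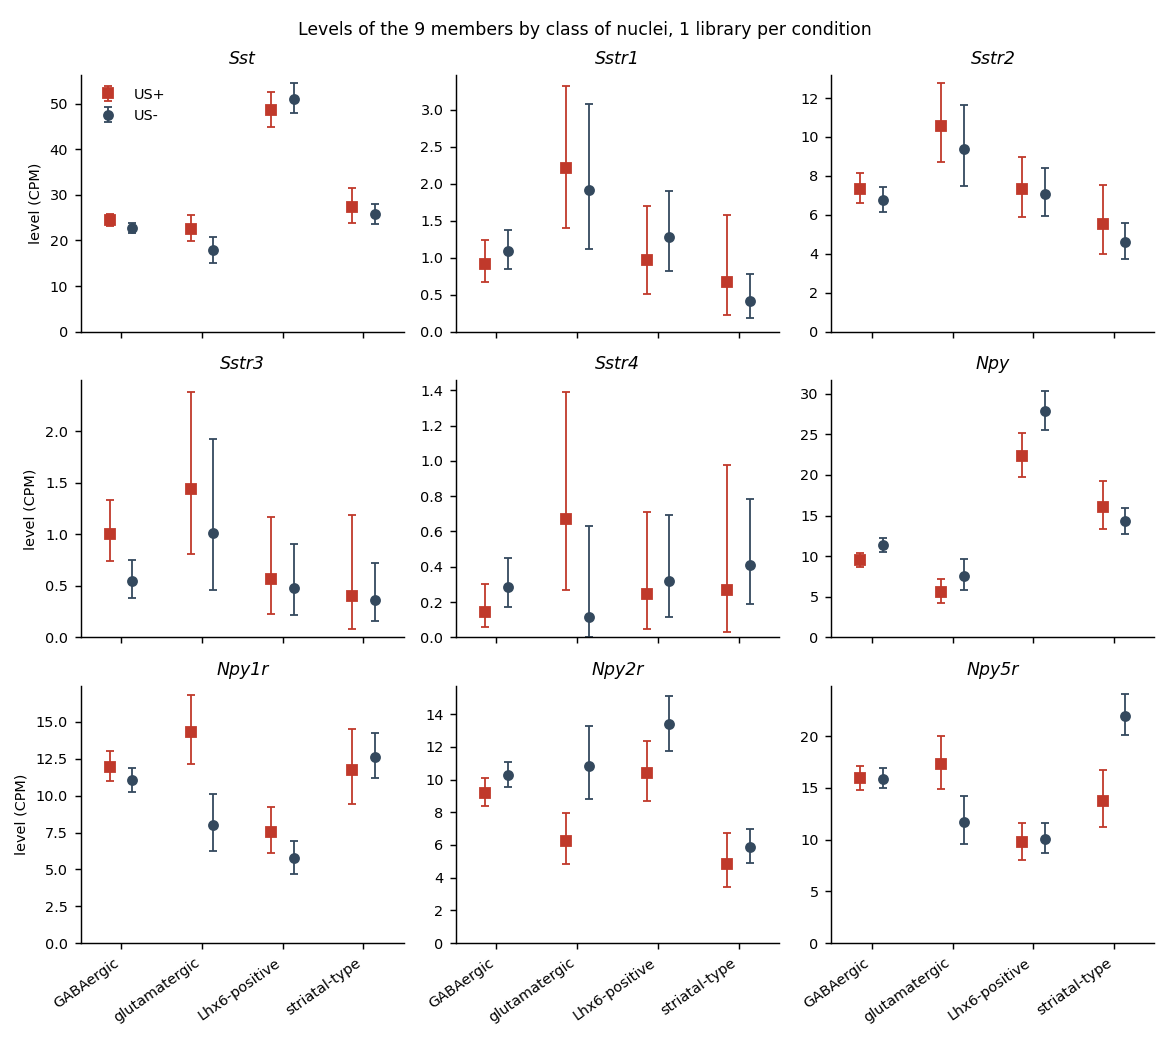
Level of each of the 9 genes in CPM (vertical axes, linear, from 0) in 4 classes of nuclei, with US+ as squares, US- as circles and exact 95% Poisson intervals of the summed UMIs as bars. Sst and Npy stand highest in Lhx6-positive nuclei, at 48.6 and 22.3 CPM in US+ and 51.1 and 27.9 CPM in US-, while Npy1r separates the libraries in glutamatergic nuclei and Npy5r in striatal-type nuclei.

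Npy was found more often in nuclei with Sst than in nuclei without it. In GABAergic nuclei, Npy was detected in 65 of 690 US+ nuclei with an Sst UMI (9.42%, 7.35–11.8) and in 3.89% of those without one. In US-, it was detected in 106 of 868 nuclei with an Sst UMI (12.2%, 10.1–14.6) and in 4.47% of those without. Among Lhx6-positive nuclei the shares were 21.6% (16.3–27.7) with Sst and 4.70% without in US+, and 27.7% (22.7–33.1) and 5.25% in US-. In glutamatergic nuclei they lay closer together, at 4.46% with Sst and 3.68% without in US+ and at 7.69% and 5.63% in US-. Before thinning, the gap between nuclei with and without Sst was thus wide in Lhx6-positive nuclei and narrow in glutamatergic nuclei of both libraries. In glutamatergic nuclei this did not hold at equal depth: thinning to 2000 UMIs gave 5.45% (1.14–15.1) with Sst and 0.861% without in US+, and 12.5% (2.66–32.4) and 2.23% in US-, from 3 nuclei with both genes in each library. Thinning gave 10.0% with Sst and 1.13% without in US+ GABAergic nuclei, and 10.2% and 1.59% in US-. In GABAergic nuclei outside the striatal-type and Lhx6-positive classes the gap was narrower. The shares there were 5.24% (3.42–7.64) with Sst and 3.92% without in US+, and 6.88% (4.75–9.58) and 4.22% in US-. Thinned, they were 4.00% (1.48–8.50) and 1.02% in US+, and 1.85% (0.384–5.32) and 1.57% in US-. No pairing was detectable there in US- at this depth.

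With at least 3 UMIs asked of each gene the pairing was tighter. Of Sst-rich GABAergic nuclei, 22 of 80 in US+ (27.5%, 18.1–38.6) and 31 of 78 in US- (39.7%, 28.8–51.5) were also Npy-rich, against 0.240% and 0.136% of the nuclei that were not Sst-rich. Read from the other peptide, 26 of 41 US+ and 48 of 59 US- Npy-rich nuclei of any class were Sst-rich. Doubly rich nuclei made up 0.262% (0.171–0.384) of US+ and 0.435% (0.321–0.576) of US- nuclei. These intervals overlap. Lhx6 was detected in 21 of the 26 US+ doubly rich nuclei and in 40 of the 48 US- ones. Among Sst-rich nuclei with no Npy UMI, Lhx6 was detected in only 27 of 88 in US+ and 23 of 55 in US-. The striatal-type rule took in 9 of the 26 US+ and 18 of the 48 US- doubly rich nuclei.

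**Figure D2:**
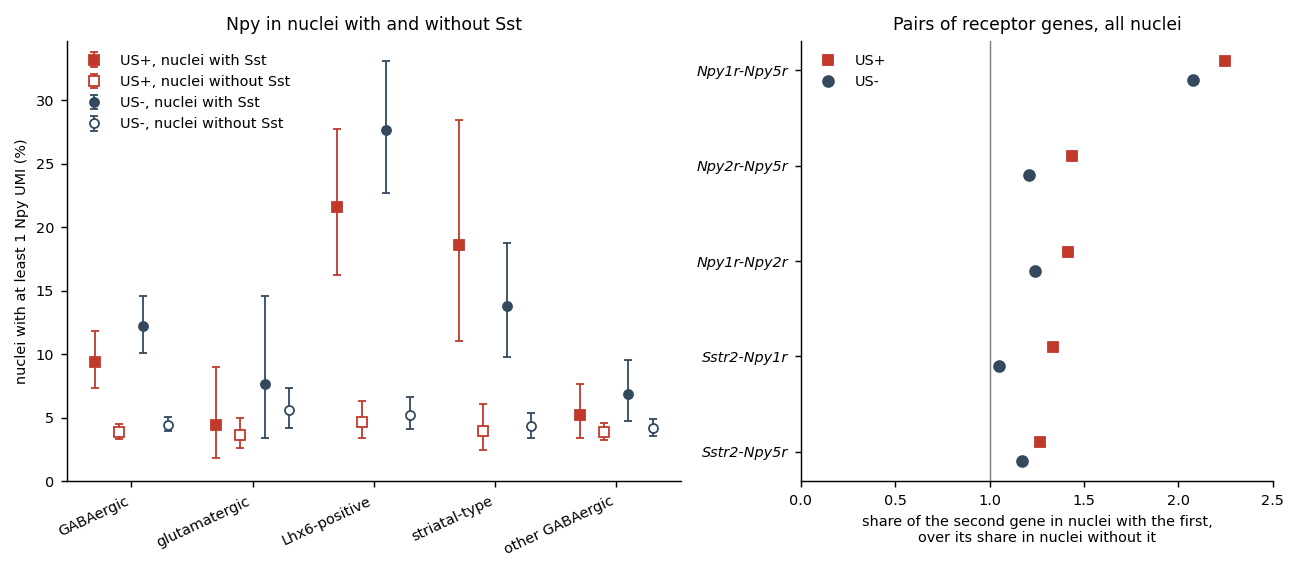
Left, share of nuclei with an Npy UMI (percent) among nuclei with (filled) and without (open) an Sst UMI in 5 classes, with exact 95% binomial intervals. Right, for the 5 receptor pairs found together in at least 50 nuclei of each library, the share of the second gene in nuclei with the first over that in nuclei without it; the Npy1r-Npy5r pair stands at 2.25 in US+ and 2.08 in US-, to the right of the other pairs.

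The other genes of the peptide-rich nuclei were ranked within GABAergic nuclei by the lower of their US+ and US- ratios, and the 10 leading genes are named for each set. Against nuclei without Sst, the Sst-rich nuclei were led by Npy, which was 42.4-fold higher in US+ and 80.1-fold higher in US-. Nos1, the neuronal nitric oxide synthase, was 27.4-fold and 27.0-fold higher, and Adgrg6, an adhesion G-protein-coupled receptor, 34.9-fold and 18.1-fold higher. The others were Nxph2 (14.2 in US+ and 26.2 in US-), a secreted ligand of neurexins, Arhgap28 (13.5 and 20.8) and Moxd1 (10.9 and 19.2), a monooxygenase-like protein. Klf5 (8.00 and 7.80) and Sox6 (7.32 and 7.91) are transcription factors, Tacr1 (7.43 and 10.4) is the substance P receptor, and Gm45025 (6.33 and 7.94) is an unnamed transcript that lies antisense within Sox6 and may share its reads. The Npy-rich nuclei were led by many of the same genes, with Nos1 at 41.4-fold in US+ and 50.7-fold in US-, Sst at 31.7-fold and 60.1-fold and Adgrg6 at 84.6-fold and 37.4-fold. Nxph2, Arhgap28, Moxd1, Tacr1 and Sox6 stood between 9.76-fold and 45.4-fold in these nuclei. Gm38505 stood at 12.5-fold in US+ and 13.5-fold in US-, and Gm20515 at 9.56-fold and 15.1-fold. Gm38505 and Gm20515 lie antisense within Sox2ot, a long non-coding RNA gene, and their counts may be shared with it.

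Nuclei rich in both peptides differed from nuclei with Sst alone. Set against Sst-rich GABAergic nuclei with no Npy UMI (48 in US+ and 37 in US-), the 22 US+ and 31 US- doubly rich nuclei held more Nos1 (9.00-fold in US+ and 11.7-fold in US-), Sox2ot (11.7 and 11.4), Tacr1 (6.04 and 15.2), Col6a5, a collagen VI chain (11.9 and 8.90), Syt6, a synaptotagmin (6.13 and 6.72), and Kcnab1, a potassium channel subunit (4.76 and 8.96). Adgrg6 had 41 UMIs in the US+ doubly rich nuclei and 1 UMI in the US+ nuclei with Sst alone. In US- it was at least 7.93-fold higher, with the floor set at 3 counts over the nuclei with Sst alone. Gm38505 (15.7 and 10.3), Nxph2 and Gm20515 completed the list.

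Marker genes of forebrain interneurons set the doubly rich nuclei apart from GABAergic nuclei without Sst. Nos1 stood at 1024 CPM in US+ and 755 in US- doubly rich nuclei, against 15.7 and 14.0 CPM in GABAergic nuclei without Sst. Sox6 was detected in all 22 US+ and all 31 US- nuclei, at 2110 and 2239 CPM, against 154 and 194 CPM without Sst. Chodl, a marker of Nos1-positive interneurons, stood at 51.4 CPM in US+ and 59.5 in US-, against 3.71 and 2.33 CPM. Lhx6 stood at 213 and 203 CPM against 24.8 and 28.5 CPM, and Tacr1 at 486 and 655 CPM against 32.2 and 31.5 CPM. Nxph1, a neurexin ligand of interneurons, stood at 1411 CPM in US+ and 1563 in US- against 308 and 250 CPM, and Pde1a, a phosphodiesterase, at 1514 and 1363 CPM against 454 and 538 CPM. Crhbp, which binds corticotropin-releasing hormone, stood at 71.1 and 18.9 CPM against 2.02 and 1.39 CPM. These 8 genes were thus higher in the doubly rich nuclei of both libraries.

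The other interneuron markers were mixed in the same nuclei. Pvalb, Pthlh and Th, the first a marker of fast-spiking interneurons and the last the enzyme that starts dopamine synthesis, had no UMI in either library. Chat, the enzyme that makes acetylcholine, had 0 UMIs in US+ and 3 in US-. Lamp5 stood at 7.90 CPM in US+ and 2.70 in US-, against 20.9 and 13.8 CPM without Sst, and Calb1 at 15.8 and 32.5 CPM against 47.1 and 27.4 CPM. Kit was 2.48-fold (1.23–4.47) higher in US+ and 2.47-fold (1.38–4.10) higher in US- doubly rich nuclei than in nuclei without Sst. Tac1, the substance P precursor, was 2.46-fold (1.34–4.15) and 1.18-fold (0.675–1.93) and Elfn1 2.04-fold (0.976–3.78) and 1.39-fold (0.778–2.30) of the level without Sst, and only the US+ interval of Tac1 lies above 1. Calb2, at 0.362-fold (0.00915–2.03) in US+ and 2.61-fold (0.950–5.73) in US-, had no clear direction. Satb1, a chromatin organizer of somatostatin interneurons, stood at 23.7 CPM in US+ (6 UMIs) and 62.2 in US- (23 UMIs) doubly rich nuclei. Against nuclei without Sst this was 0.667-fold (0.244–1.45) in US+ and 1.46-fold (0.925–2.20) in US-, and both intervals include 1. It was lower than in nuclei with Sst alone (131 and 227 CPM). Cort, which encodes the somatostatin relative cortistatin, had 1 UMI in each library. Macroglial RNA was nearly absent, with no UMI of 6 astrocyte and 6 oligodendrocyte markers in the US+ doubly rich nuclei and 2 and 1 UMIs in the US- ones. Of 5 microglia markers 3 were detected in each library, summing to 158 CPM in US+ and 135 in US-, beside 164 and 150 CPM over all nuclei, while Csf1r and C1qa were at 0. Rarb stood at 684 CPM in US+ and 947 in US- doubly rich nuclei and Drd1 was detected in 9 of 22 and 12 of 31, while the striatal projection-neuron genes Adora2a and Ppp1r1b were at 0 in US+ doubly rich nuclei and detected in US- ones. The summed level of 7 striatal markers, Rarb included, was 2502 CPM in US+ and 2215 in US- doubly rich nuclei, against 1142 and 1873 CPM in nuclei without Sst.

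**Figure D3:**
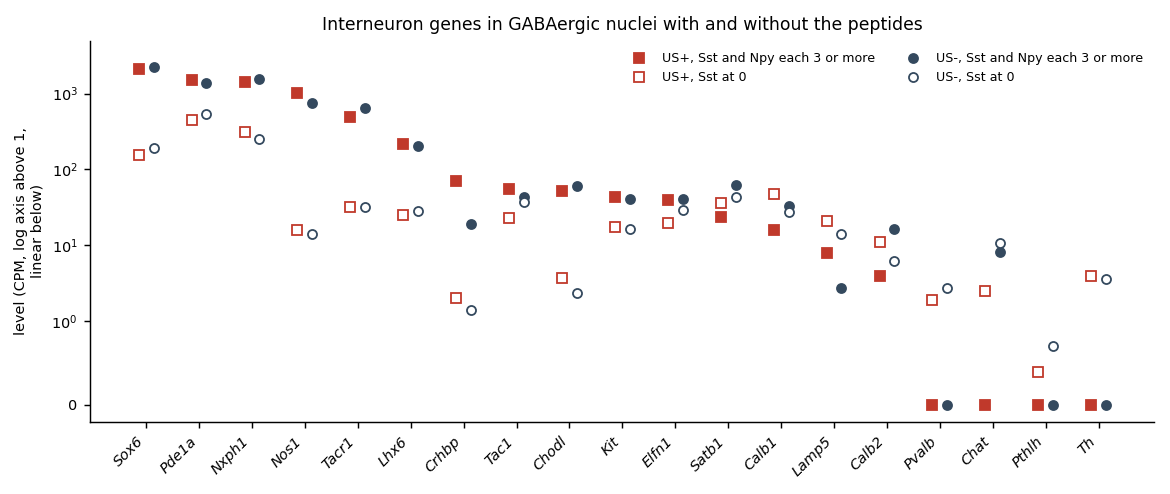
Level in CPM (log axis above 1, linear below) of the interneuron marker genes in GABAergic nuclei rich in both Sst and Npy (filled, 22 nuclei in US+ and 31 in US-) and in GABAergic nuclei without Sst (open), with US+ as squares and US- as circles. Sox6, Pde1a, Nxph1, Nos1, Tacr1, Lhx6, Crhbp and Chodl lie above the open symbols in both libraries, and Pvalb, Pthlh and Th lie at 0 in the doubly rich nuclei.

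Grouping nuclei by Nos1 reads the same association from the other side and is not separate support. The overlap of this group with the peptide-rich nuclei was not counted. In nuclei of any class with at least 3 Nos1 UMIs (207 in US+ and 229 in US-), Sst reached 134 CPM (121–149) in US+ and 201 CPM (185–218) in US-, and Npy reached 77.8 CPM (67.7–89.0) and 147 CPM (134–162). Of 9 finer groups of at least 100 nuclei in each library, formed by marker genes, this group had the highest level of both peptides in both libraries. The next highest for Npy were Drd1-leaning striatal-type nuclei, at 21.0 CPM in US+ and 17.4 in US-.

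Sst levels as a whole were close between the libraries, and Npy levels had ratios below 1 over all nuclei and in 3 of the 4 classes. Over all nuclei the US+ over US- ratio of Sst was 1.11 (1.04–1.18), from 2191 and 2304 UMIs, and that of Npy was 0.718 (0.652–0.790), from 690 and 1120 UMIs. Within Lhx6-positive nuclei, Sst had a ratio of 0.952 and Npy one of 0.801 (0.690–0.929). Within GABAergic nuclei the ratios were 1.08 (0.997–1.16) for Sst and 0.840 (0.746–0.945) for Npy. Npy had a ratio of 0.737 (0.510–1.06) in glutamatergic nuclei and, on the other side of 1, of 1.12 (0.903–1.39) in striatal-type nuclei, or 0.998 without the 5% of nuclei with the most UMIs. With equal weight per nucleus the Lhx6-positive Npy ratio was 0.673, and no equal-weight ratio was computed over all nuclei. Over all nuclei, the part of Npy in nuclei with 1 or 2 UMIs had a ratio of 0.760 (0.668–0.864) and the part in Npy-rich nuclei 0.668 (0.577–0.772), while Sst had 1.16 (1.08–1.26) and 1.03 (0.935–1.13). None of these passed the 1.5-fold used to call a difference, though the Npy-rich part lies at its edge. The lower share of Lhx6-positive nuclei in US+ moved with the Npy ratio, and its part was not tested.

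The doubly rich nuclei carried far more early-response RNA in US+ than in US-. The summed level of Fos, Fosb, Egr1, Nr4a1 and Dusp1, genes that neurons switch on within minutes of strong activity, stood at 486 CPM (404–580) in the 22 US+ GABAergic doubly rich nuclei and at 21.6 CPM (9.34–42.6) in the 31 US- ones. Their ratio was 22.5 (11.1–53.2), from 123 and 8 UMIs, and 8.60 where 1 UMI of each peptide was the limit. In GABAergic nuclei with no Sst and no Npy UMI the sum was 78.5 CPM in US+ and 27.1 in US-, a ratio of 2.90 (2.72–3.09). The intervals of the 2 ratios do not overlap, and they do not hold the spread between mice.

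Counted by nucleus, the contrast had the same direction. An early-gene UMI was found in 17 of 22 US+ doubly rich nuclei (77.3%, 54.6–92.2) and in 5 of 31 US- ones (16.1%, 5.45–33.7), against 28.2% of US+ and 17.6% of US- nuclei without either peptide. The UMIs per doubly rich nucleus had a lowest value of 0, a median of 3.5 and a highest value of 23 in US+, and 0, 0 and 2 in US-. The values of the libraries overlap at the low end, since 5 US+ nuclei had none, and 8 US+ nuclei but 0 US- nuclei had at least 5. Few nuclei carried much of the sum, 4 US+ nuclei holding at least 50% of its UMIs. Without the nucleus with the most early-gene UMIs in each library the ratio was 27.7. This step took 23 of 123 US+ UMIs and 2 of 8 US- UMIs. The loss in US- raises the ratio, so the value does not show how much the highest US+ nucleus contributed. Median depth was 7862.5 UMIs in US+ and 8678 UMIs in US-, so the US+ nuclei were not the deeper ones by median. The US+ nuclei with 23 and 19 early-gene UMIs were far deeper than this median, with 6.24 and 4.87 of them per 10000 UMIs. The early-gene ratio was not computed without the 5% of nuclei with the most UMIs.

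The early genes differed among themselves. In doubly rich nuclei Fos had 38 UMIs in US+ and 0 in US-, at least 18.5-fold higher with the floor at 3 counts over the US- nuclei, and Nr4a1 had 21 and 0 UMIs, at least 10.2-fold higher. Fosb had 31 UMIs in US+ and 1 in US-, a ratio of 45.3 (7.55–1846). Egr1 had 26 and 4 UMIs, a ratio of 9.50 (3.29–37.4), and Dusp1, a phosphatase of MAP kinases, had 7 and 3 UMIs, a ratio of 3.41 (0.778–20.4) whose interval includes 1. Outside the sum, the activity-dependent transcription factor Npas4 had 34 and 1 UMIs and the synaptic gene Arc had 10 and 1. In nuclei without either peptide the ratios were 4.93 for Fos, 23.7 for Fosb, 2.27 for Nr4a1, 2.16 for Egr1, 1.18 for Dusp1, 6.60 for Npas4 and 4.21 for Arc. Fosb was the gene with the highest ratio of the 7 in those nuclei.

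Nuclei with only 1 of the peptides gave smaller sums. Sst-rich GABAergic nuclei with no Npy UMI had 68.2 CPM in US+ (39 UMIs in 48 nuclei) and 7.16 CPM in US- (3 UMIs in 37 nuclei), a ratio of 9.52 (3.03–48.2). This interval overlaps that of the doubly rich nuclei (11.1–53.2) and, at its low end, that of nuclei without either peptide (2.72–3.09). By value, both levels lay below those of nuclei without either peptide (78.5 CPM in US+ and 27.1 in US-). Npy-rich nuclei with no Sst UMI were too few to compare, at 6 in US+ and 4 in US-. All Sst-rich GABAergic nuclei had 193 CPM (166–223) in US+ and 18.1 CPM (10.4–29.4) in US-, and all Npy-rich ones had 394 and 29.0 CPM. Within the Lhx6-positive class, the doubly rich nuclei had 457 CPM in US+ and 29.3 in US-, a ratio of 15.6 (8.61–31.1), and nuclei without either peptide had 41.4 and 22.6 CPM, a ratio of 1.83 (1.58–2.13). The wider contrast of the doubly rich nuclei was thus also present among nuclei that shared Lhx6.

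**Figure D4:**
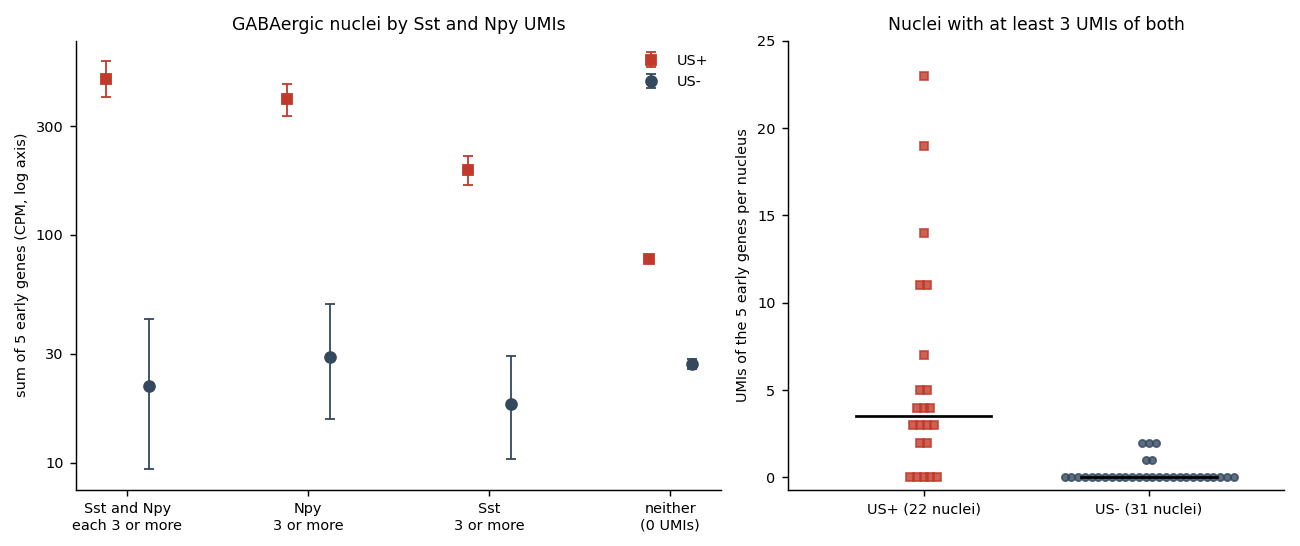
Left, summed level of Fos, Fosb, Egr1, Nr4a1 and Dusp1 in CPM (log axis) in 4 sets of GABAergic nuclei, US+ as squares and US- as circles with exact 95% Poisson intervals; doubly rich nuclei stand at 486 CPM in US+ and 21.6 in US-. Right, UMIs of the 5 genes in each doubly rich nucleus, with the median as a line at 3.5 in US+ and 0 in US-.

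Among the somatostatin receptors, Sstr2 was found in each neuron class and the others were near the limit of detection. Sstr2, which mediates much of the inhibition by somatostatin in the brain, reached 8.61 CPM in US+ and 7.30 in US- over all nuclei, with a UMI in 6.63% and 5.87% of nuclei and none in the oligodendrocyte-type nuclei. It stood at 10.6 CPM in US+ and 9.37 in US- glutamatergic nuclei, 7.33 and 6.76 CPM in GABAergic nuclei and 5.54 and 4.58 CPM in striatal-type nuclei. The order of these classes was shared by the libraries. Lhx6-positive nuclei, at 7.30 CPM in US+ and 7.08 in US-, lay just below GABAergic nuclei in US+ and above them in US-. Nuclei with at least 2 UMIs of Sim1, a transcription factor of hypothalamic neurons, had 10.1 CPM of Sstr2 in US+ and 11.5 CPM in US-. Sstr1 reached 1.20 CPM in both libraries. It was 2.21 CPM in US+ and 1.92 in US- glutamatergic nuclei (23 and 17 UMIs). In striatal-type nuclei it was 0.676 and 0.413 CPM (5 and 9 UMIs). The US+ intervals of these classes overlap, at 1.40–3.32 and 0.219–1.58 CPM. Sstr3, a receptor of neuronal primary cilia, reached 1.15 CPM in US+ and 0.647 in US-, and Sstr4 had only 20 and 28 UMIs in all. At this depth no order of classes could be read for Sstr3 or Sstr4.

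The neuropeptide Y receptors were spread more unevenly. Npy1r, the postsynaptic Y1 receptor, reached 12.8 CPM in US+ and 10.9 in US- over all nuclei and was lowest in Lhx6-positive nuclei at 7.55 and 5.75 CPM. Npy2r, the Y2 receptor, which acts largely at nerve terminals, reached 8.72 and 10.3 CPM and was lowest in striatal-type nuclei at 4.87 and 5.87 CPM. Npy5r, the Y5 receptor, reached 16.4 and 15.6 CPM, with a UMI in 11.0% of US+ and 11.6% of US- nuclei. Its lowest class was the Lhx6-positive one, at 9.74 and 10.1 CPM. Npy1r and Npy5r thus shared their lowest class among the 4, and Npy2r had another. In oligodendrocyte-type nuclei the 3 genes had 1 UMI in all, of Npy1r in US+.

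Nuclei with at least 3 UMIs of the estrogen receptor gene Esr1 (1043 in US+ and 701 in US-) were among the highest groups for all 3 Y receptors. Npy1r stood there at 19.99 CPM (17.5–22.7) in US+ and 14.7 in US-, Npy2r at 16.0 CPM (13.8–18.4) and 25.9 CPM (22.4–29.8), and Npy5r at 26.3 CPM (23.5–29.4) and 25.0 CPM (21.6–28.8). For Npy2r and Npy5r this was the highest of the 9 finer groups in both libraries, and for Npy1r it was so in US+. In US- the highest Npy1r was in nuclei with at least 2 UMIs of the peptide gene Gal, at 15.6 CPM (10.8–21.95), whose interval includes the Esr1 value. Neighbours in these orders were not always apart: in US+, Npy2r in Gal nuclei was 14.5 CPM (11.2–18.5), which overlaps the Esr1 interval. A smaller group with at least 3 UMIs of Vip and Vipr2 (137 and 48 nuclei) had 35.1 CPM (25.9–46.6) of Npy5r in US+ and 36.3 CPM (20.7–58.9) in US-. Cholinergic nuclei, with at least 3 UMIs of Chat and Slc5a7, lay at the other end with 2.22 and 3.24 CPM.

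Npy5r was found more often in nuclei with Npy1r than in nuclei without it. Npy5r was detected in 191 of 856 US+ nuclei with Npy1r (22.3%, 19.6–25.3) and in 9.94% of those without it, and in 195 of 879 US- nuclei with Npy1r (22.2%, 19.5–25.1) and in 10.7% of those without it. The fold between these shares was 2.25 in US+ and 2.08 in US-. Of 21 receptor pairs computed, 5 were found together in at least 50 nuclei of each library, and the other 4 had folds between 1.05 and 1.44. After thinning to 2000 UMIs the folds of those 4 pairs, from 4 to 11 nuclei with both genes, lay between 0.640 and 2.27, so no pairing of theirs could be read at equal depth. Deeper nuclei show any pair together more often, and with each nucleus thinned to 2000 UMIs the shares were 6.14% with Npy1r and 2.97% without in US+, and 9.23% and 3.53% in US-. Within GABAergic nuclei the thinned shares were 3.25% and 2.96% in US+ and 9.80% and 3.36% in US-, so there the pairing was not detectable in US+ at this depth.

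Receptors of the peptide-rich nuclei themselves were few. In doubly rich GABAergic nuclei Npy2r stood at 23.7 CPM in US+ (6 UMIs) and 27.0 in US- (10 UMIs). Over all Sst-rich nuclei it was 2.48-fold (1.52–3.86) higher than in nuclei without Sst in US+ and 3.86-fold (2.63–5.49) higher in US-. Npy1r had the opposite direction, at 0.593 (0.237–1.23) in US+ and 0.308 (0.0633–0.904) in US-, and the interval of the US+ value includes 1. Npy5r, Sstr1 and Sstr2 had intervals that include 1 in both libraries, so no difference was detectable for them.

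Receptor levels of US+ and US- were compared in each class for genes with at least 20 UMIs over both libraries. Over all nuclei, 1 of the 9 genes was at least 1.5-fold higher in US+ and 0 were lower, against 7.67% higher and 3.36% lower of the 20122 genes with at least 50 UMIs. That background has a higher UMI minimum than the members, and Sstr4, with 48 UMIs over all nuclei and 26 in GABAergic nuclei, would not enter it. It was Sstr3, with 98 UMIs in US+ and 64 in US- and a ratio of 1.78 (1.29–2.49). Within GABAergic nuclei 1 of 9 was higher (background 6.83%) and 1 lower (3.71%). Sstr3 had a ratio of 1.84 (1.17–2.92) there, and Sstr4, with 7 US+ and 19 US- UMIs, had 0.509 (0.181–1.26), which counting error alone allows. In GABAergic nuclei outside the striatal-type and Lhx6-positive classes 1 of 8 was higher (Sstr3, 1.76, background 4.87%) and 0 were lower (2.91%). A single gene of 9 is near the background, and the median ratio of the 9 was 1.05 over all nuclei and 1.00 in GABAergic nuclei, beside 1.04 in each for all genes.

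Glutamatergic nuclei held the largest Npy1r ratio of the 4 classes. Npy1r stood at 14.3 CPM (12.1–16.8, 149 UMIs) in US+ and 8.02 CPM (6.26–10.1, 71 UMIs) in US-, a ratio of 1.79 (1.34–2.41). Npy2r lay the other way, at 6.25 CPM in US+ and 10.8 in US- with a ratio of 0.577 (0.414–0.798). Npy5r had 17.3 and 11.7 CPM and a ratio of 1.47 (1.15–1.90), just inside the 1.5-fold limit. So 1 of 8 genes was higher (background 3.16%) and 1 lower (1.79%), with a median ratio of 1.21 beside 0.997 for all genes. Under the stricter rule of at least 2 transporter UMIs and no GABAergic UMI the ratios were 2.81 for Npy1r, 2.29 for Npy5r, 0.385 for Npy2r and 2.68 for Sst. These 4 lay farther from 1 in the same directions, and the other 4 of the 8 genes stayed within their counting intervals. The rule left out at least the 780 US+ and 608 US- nuclei with 1 transporter UMI. Fewer UMIs remained, and no intervals are given for these ratios. Glial RNA moved too: the summed level of 6 astrocyte markers in glutamatergic nuclei was 15.5 CPM in US+ and 5.76 in US-, and its part in these ratios was not tested. Thinned to 2000 UMIs, 3.37% (2.43–4.55) of US+ and 1.68% (0.983–2.68) of US- glutamatergic nuclei had an Npy1r UMI.

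Striatal-type nuclei differed in Npy5r. It stood at 13.8 CPM (11.2–16.7, 102 UMIs) in US+ and 22.0 CPM (20.1–24.1, 480 UMIs) in US-, a ratio of 0.627 (0.501–0.777). Drd1-leaning nuclei had 12.5 CPM in US+ and 22.7 in US-, and Drd2-leaning nuclei 15.9 and 21.7 CPM, so both kinds were lower in US+. It was the only one of 6 genes past 1.5-fold in this class, where 8.88% of all genes were lower and 6.39% higher. Thinned to 2000 UMIs, 1.87% of US+ and 5.55% of US- striatal-type nuclei had an Npy5r UMI. In Lhx6-positive nuclei 0 of 7 genes passed 1.5-fold in either direction (background 3.44% higher and 2.24% lower), and Npy2r was at 0.777 (0.623–0.965).

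**Figure D5:**
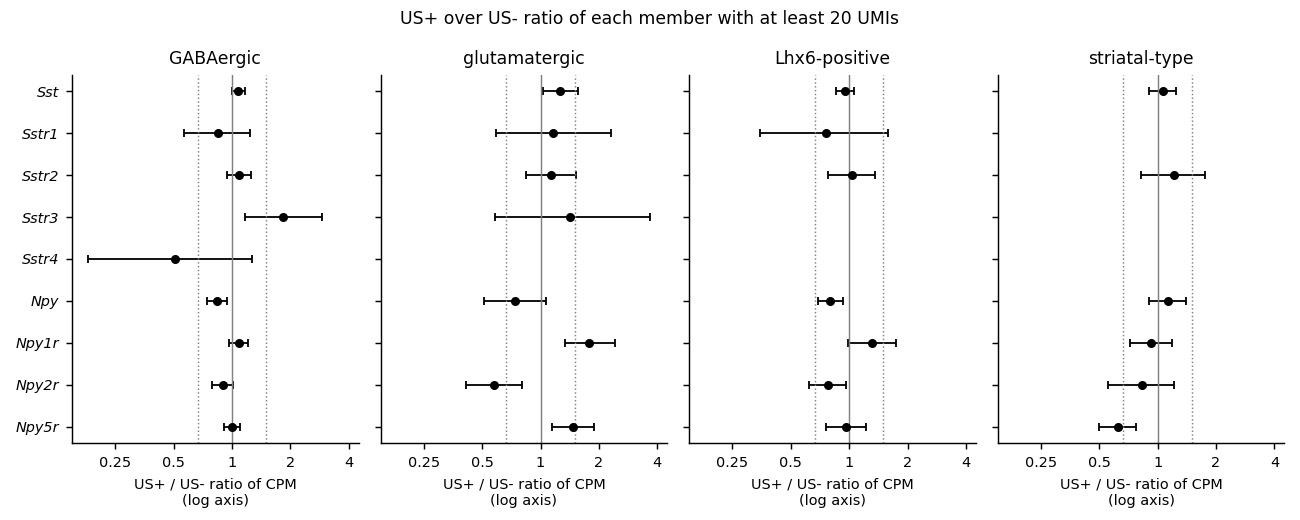
US+ over US- ratio of CPM (log axis) for each gene with at least 20 UMIs in 4 classes of nuclei, with exact 95% conditional intervals as bars and dotted lines at 1.5-fold in each direction. The points past the dotted lines are Npy1r (1.79) and Npy2r (0.577) in glutamatergic nuclei, Npy5r (0.627) in striatal-type nuclei, and Sstr3 (1.84) and Sstr4 (0.509) in GABAergic nuclei.

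The wider pathway was read from a list of 39 genes: other ligands and receptors of the families, and genes for making, sensing and degrading the peptides. Over all nuclei 34 had at least 50 UMIs, of which 4 passed 1.5-fold upward in US+ (background 7.67%) and 2 downward (3.36%). The median ratio was 1.11, beside 1.04 for all genes. The highest were the peptidases Dpp4 (1.92), which trims neuropeptide Y, and Fap (1.80). The lowest were the adenylyl cyclase Adcy5 (0.554), abundant in the striatum, and the peptidase Mme (0.617), also called neprilysin. The drop in Adcy5 moved with the smaller share of striatal-type nuclei in US+, whose part was not tested. In GABAergic nuclei outside the striatal-type and Lhx6-positive classes the Adcy5 ratio was 0.644 (0.613–0.676). All 12 genes for peptide processing had ratios above 1, with a median of 1.20. The median of all genes was also above 1, and the share of all genes above 1 was not counted. Only the secretogranin gene Scg2 (1.64) and the vesicle-release gene Cadps2 (1.52) of the 12 were past 1.5-fold. The 15 genes for receptor coupling had a median of 1.03.

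In GABAergic nuclei 4 of 34 genes were higher (background 6.83%) and 1 lower (3.71%), led by Dpp4 (2.05) and Scg2 (1.78) and with Adcy5 (0.550) and Mme (0.668) lowest. In glutamatergic nuclei 0 of 32 genes were higher (background 3.16%) and 1 was lower (1.79%), both near the background, with a median of 0.988 beside 0.997 for all genes, Pcsk1n (1.32) and Cadps2 (1.27) highest, and Thop1 (0.639) and Mme (0.678) lowest. The 12 processing genes had a median of 1.11 in glutamatergic nuclei, with 0 past 1.5-fold. Of these, Pcsk1 (0.720), Pam (0.906) and Cadps (0.965) had ratios below 1 there. The difference between the classes was not tested. Of the remaining ligands and receptors, 6 of 7 were scarce, among them Cort with 22 US+ and 20 US- UMIs and Sstr5 with 42 and 59. The exception was Agrp, the agouti-related peptide of feeding neurons, with 76.9 CPM in US+ and 74.9 in US-, whose long gene model overlaps other genes and makes its counts uncertain.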

How the data were processed

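Nuclei were counted with Cell Ranger 6.1.1 on mm10 by the authors, who deposited raw UMI counts per gene and nucleus; the study also states a normalization of the reads to the least saturated sample. Introns and strand in counting are not given in the sources used here. The libraries held 95029281 (US+) and 101948623 (US-) UMIs before filtering. Counts of nuclei were summed per library and class (Python 3.11.15, numpy 2.4.6, scipy 1.17.1, pandas 2.3.3) and divided by all UMIs of those nuclei as CPM. Intervals are exact Poisson, Clopper-Pearson or conditional binomial, at 95%. UMI totals scaled by TMM (edgeR 4.0.16 in R 4.3.3) were an alternative, beside other UMI minimums, class rules, thinning (seed 1) and leaving out the 5% of nuclei with the most UMIs as possible doublets; no doublet caller was run. The code for the US+ over US- ratios with their intervals and for thinning was tested on simulated data, and the ranking code was not. Named genes were the 9 genes, the 10 genes with the highest lower ratio of the 2 libraries in each ranking (at least 20 UMIs), the interneuron list, and the 2 highest and 2 lowest of the pathway list; the finer marker groups were named after their values were seen. Motif shares used all RefSeq windows. The genes and lists were chosen with earlier results of these data known.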

Additional observations from a re-analysis of the deposited data

Results flagged for a closer look

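Npy5r had a US+ over US- ratio of 1.47 (1.15–1.90) in glutamatergic nuclei and of 0.627 (0.501–0.777) in striatal-type nuclei. It was singled out because the ratio lay above 1 in the first class and below 1 in the second. The difference between the classes was not tested, since each condition had 1 library. In GABAergic nuclei outside the striatal-type and Lhx6-positive classes the Npy5r ratio was 1.15 (1.02–1.29).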

How the results depend on the processing

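No paired analysis was possible because each condition had 1 library. No US+ over US- ratio past 1.5-fold changed direction under the alternatives run, while some ratios near 1 crossed it and the folds of 3 receptor pairs fell below 1 in 1 library after thinning (Npy2r-Npy5r 0.640 and Sstr2-Npy1r 0.888 in US-, Sstr2-Npy5r 0.785 in US+). Of 30 US+ over US- ratios, 0 moved beyond their counting interval with TMM scaling, with at least 5000 UMIs per nucleus, with no UMI minimum or without shared barcodes, the last an alternative chosen after seeing the data. The Npy1r ratio in glutamatergic nuclei was 2.81 in the smaller set with at least 2 transporter UMIs and no GABAergic UMI. Weighting each nucleus equally took the Npy ratio of Lhx6-positive nuclei to 0.673. With at least 2 UMIs of each gene, Npy was found in 17.2% (US+) and 23.8% (US-) of Sst-positive GABAergic nuclei, and Npy5r in 9.25% and 9.15% of Npy1r-positive nuclei. Npy5r was found in 6.14% and 9.23% of them after thinning. The early-gene ratio of doubly positive nuclei was 8.60 with 1 UMI of each peptide as the limit. That of nuclei without either peptide was 2.47 over any class and 1.83 in Lhx6-positive nuclei, both chosen after seeing the data, as was leaving out the nucleus with the most early-gene UMIs. Over any class, doubly rich nuclei had 423 CPM of the 5 early genes in US+ (26 nuclei) and 29.9 CPM in US- (48 nuclei). Of these, 22 US+ and 31 US- nuclei were GABAergic. Shares of positive nuclei depend on depth: 71 of 72 moved with thinning. Of 72 levels, 21 moved with equal weight per nucleus and 14 without the peptide-rich nuclei, and 4 of 8 ratios moved under the stricter glutamatergic rule. With 1 library a condition, no spread between mice can be given for any value.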

Other observations

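Early-response RNA was also summed in GABAergic nuclei that carried a receptor gene and were not rich in Sst or Npy, a comparison chosen after seeing the data. Nuclei with an Npy1r UMI had 86.6 CPM of the 5 early genes in US+ and 19.98 in US-, a ratio of 4.33 (3.58–5.28), and nuclei without one had a ratio of 2.82 (2.65–2.99). Outside the striatal-type and Lhx6-positive classes the ratios were 2.91 (2.26–3.78) with Npy1r and 2.35 (2.17–2.55) without, and these intervals overlap. Nuclei with Npy2r had less early-gene RNA in each library, 44.8 CPM in US+ and 15.1 in US- against 81.6 and 27.9 CPM without Npy2r, while the ratios were 2.97 with and 2.92 without it.

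Sstr2 went the other way outside the striatal-type and Lhx6-positive classes, with a ratio of 1.49 (1.08–2.06) in nuclei with Sstr2 and 2.47 (2.29–2.68) in nuclei without it. The level with Sstr2 was 41.5 CPM in US+ and 27.9 in US- there. Over all GABAergic nuclei not rich in either peptide, the ratios were 2.49 (1.95–3.18) with Sstr2 and 2.97 (2.80–3.15) without it. These intervals overlap. In glutamatergic nuclei the early-gene ratio was 0.618 (0.339–1.14) with Npy1r and 1.25 (1.04–1.51) without it. None of these differences was tested over mice.

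Cholinergic nuclei, with at least 3 UMIs of Chat and Slc5a7, had an Sst UMI in 11 of 65 US+ nuclei (16.9%, 8.76–28.3) and in 10 of 207 US- nuclei (4.83%, 2.34–8.70), at median depths of 12287 and 13935 UMIs. The US- share is below that of every class of neurons given above, although these nuclei were deep.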
